A study of Mus musculus with 6 samples.

Results

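The respiratory chain subunits that are encoded in the nucleus were followed in mRNA of mouse pachytene spermatocytes, germ cells midway through the first meiotic prophase. Members were all genes whose symbol begins with Ndufa, Ndufb, Ndufc, Ndufs, Ndufv, Uqcr, Cox4, Cox5, Cox6, Cox7, Cox8 or Atp5, together with Sdha, Sdhb, Sdhc and Sdhd. Names with -ps and the assembly factors named Ndufaf were left out. Of 90 such gene identifiers with a name, 85 had a row among the 21310 genes of the count table, and 79 reached a floor of 5 CPM (counts scaled to the size of the library) in at least 1 library. Atp5b, Cox4i1, Ndufb4c, Ndufs6b and a second identifier of Atp5o had no row and were not analysed here. Ndufa11b and Cox6c2 met the naming rule but are pseudogenes in RefSeq.

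The study's mRNA came from 1 library of Alkbh1-/- spermatocytes and 1 library of wild-type (WT) spermatocytes. Alkbh1 encodes a dioxygenase of the AlkB family. The mutant line carries a targeted deletion of exon 6 of Alkbh1, and its heterozygotes were backcrossed to C57/BL6, per the labels. The labels used here give no strain for WT, no age, no number of animals and no way in which the cells were purified. RNA longer than 200 nt entered oligo(dT) selection, with 1.6 µg for Alkbh1-/- and 1 µg for WT. The libraries held 10229260 counts in Alkbh1-/- and 8222671 counts in WT. With 1 library per genotype there was no replicate error and no test, so genotype, animal and preparation cannot be told apart. Intervals below are exact 95% intervals that cover counting error only. Alkbh1 itself had 20.2 CPM in Alkbh1-/- and 21.0 CPM in WT; since reads were summed over all its exons, this does not check the loss of exon 6.

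The labelled cell type was set against marker lists. Among all 12189 genes over the floor, 8.06% lay 1.5-fold or more above WT in Alkbh1-/- and 8.79% below it. The other 83.2% lay within 1.5-fold. All 15 spermatocyte markers over the floor lay within 1.5-fold between the libraries, and their list summed to 12579 CPM in Alkbh1-/- and 13497 CPM in WT, with Ldhc at 4234 CPM in Alkbh1-/- and 4918 CPM in WT. Markers of other cells of the testis were detected too. The 18 Sertoli cell markers summed to 1798 CPM in Alkbh1-/- and 3530 CPM in WT. Of the 17 over the floor, 15 lay 1.5-fold or more below WT in Alkbh1-/- and 0 above it, and the member under the floor, Inhba, had 1 count in Alkbh1-/- and 0 in WT. The 11 Leydig cell markers summed to 255 CPM in Alkbh1-/- and 245 CPM in WT, with a median log2 fold of 0.74. Of 10 over the floor, 6 were 1.5-fold or more higher (Cyp17a1, Cyp11a1, Hsd3b6, Star, Hsd17b3 and Scp2) and 2 lower (Nr5a1 and Ldhb). The 14 spermatid markers summed to 2671 CPM in Alkbh1-/- and 2188 CPM in WT, with 6 of 14 higher and 0 lower. Spermatogonial markers summed to 154 CPM in Alkbh1-/- and 150 CPM in WT, yet 3 of 8 over the floor were higher (Kit, Stra8 and Sohlh2), 0 were lower and the median log2 fold was 0.30. Peritubular myoid markers summed to 92.6 CPM in Alkbh1-/- and 96.5 CPM in WT, with 2 of 5 over the floor higher (Acta2 and Myh11), 1 lower (Myl9) and a median of 0.53. In the Leydig, spermatogonial and myoid lists the sums were thus close while members lay on both sides of 0. In the Leydig list 7 lay above 0, and the 3 below it were Nr5a1, Ldhb and Fdx1. These 3 had 50.9, 65.9 and 53.0 CPM in WT and 22.9, 36.1 and 42.6 CPM in Alkbh1-/-. The close Leydig sum therefore does not mean that most of its genes were level. The list of macrophage and blood markers, which includes the endothelial genes Pecam1, Vwf and Cdh5, summed to 24.6 CPM in Alkbh1-/- and 25.6 CPM in WT. The 2 over the floor were Vwf and Cdh5, with 0 higher and 1 lower (Cdh5). The macrophage genes of the list all lay under the floor, so their levels are not well measured. In a bulk sample, fewer cells of a type and less RNA per cell cannot be told apart.

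The respiratory chain sits in the inner mitochondrial membrane. Complex I takes electrons from NADH and complex II takes them from succinate, and both pass them by ubiquinone to complex III. Cytochrome c carries them on to complex IV, which reduces oxygen, and ATP synthase, often called complex V, uses the proton gradient that complexes I, III and IV build. Most subunits are encoded in the nucleus, and some have a second gene used in 1 kind of tissue. Testis isoforms of subunits of complex IV and of cytochrome c are well known, and spermatocytes rely on mitochondrial respiration more than the spermatogonia before them.

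As a group the subunits differed little between the genotypes, and most lay slightly lower in Alkbh1-/-. Of 79 members over the floor, 0 exceeded WT by 1.5-fold or more in Alkbh1-/-, where 8.06% of all 12189 genes above the same floor did so. By the same measure 3 members lay below WT (Ndufb11, Ndufs5 and Cox8a), where 8.79% of all genes did so. In either direction these were 3 of 79 members and 16.8% of all genes. At 2-fold there were 0 members in either direction, while 1.8% of all genes were higher, 2.71% lower and 4.5% either. These shares are not matched for depth, since 39 of the 79 members and 3894 of all genes had 500 or more WT counts. Of those 39 members, 0 passed 1.5-fold in either direction. Of those 3894 genes, 1.54% were higher and 5.11% lower. The median log2 fold of Alkbh1-/- over WT, taken on CPM plus 1, was -0.14 for the members and -0.02 for all genes. By sign, 64 of the 79 members (81.0%) lay below 0, as did 52.1% of all genes. The members also lay closer together than genes at large, with an SD of the log2 fold of 0.22 for the members and 0.45 for all genes. Among those with 500 or more WT counts it was 0.15 for members and 0.30 for all genes. A narrow spread was not particular to the members. The SD was 0.21 for mitochondrial ribosomal proteins and 0.18 for citric acid cycle genes, but 0.31 for cytosolic ribosomal proteins and 0.36 for assembly factors. Counting error alone left 41 members with an interval that held a ratio of 1. The interval lay wholly below 1 for 33 members (41.8%, against 26.8% of all genes) and wholly above it for 5 (6.33%, against 23.7%). Genes with more counts have narrower intervals, and these shares are not matched for depth either. The 5 were Ndufs3, Ndufv1, Sdha, Atp5s and Atp5l. These counts of intervals were made with TMM scaling only. Several upper ends lay close to 1, such as 0.996 for Ndufv2 and 0.989 for Sdhd, so the 33 depends on the scaling.

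**Figure D1:**
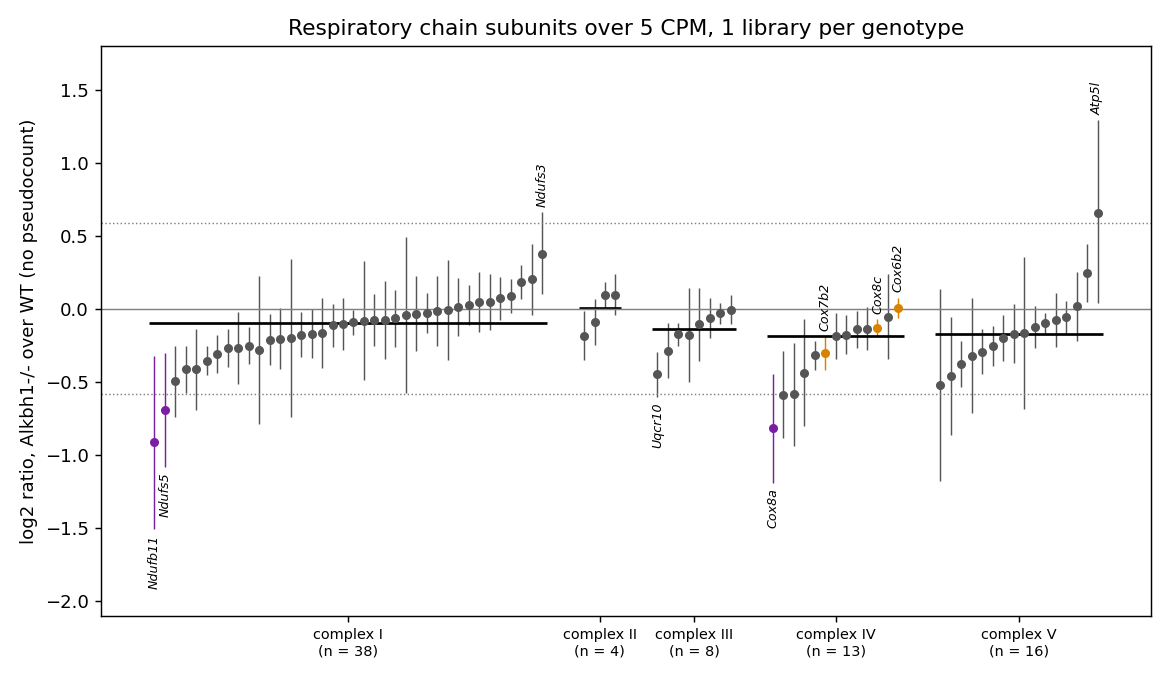
Log2 ratio of Alkbh1-/- over WT CPM (y axis, no pseudocount) for the 79 members over 5 CPM, ordered within each complex, with exact 95% counting intervals. Black lines are complex medians, dotted lines mark 1.5-fold, purple marks members past 1.5-fold lower once a pseudocount of 1 CPM is added, and orange marks testis isoforms. Most points lie slightly below 0 in complexes I, III, IV and V, while complex II is split around 0.

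In sum, members held 0.643% of counts in Alkbh1-/- (interval 0.638 to 0.648) and 0.683% in WT (0.677 to 0.688). The summed level was 6361 CPM in Alkbh1-/- and 6902 CPM in WT, a ratio of 0.922 (0.911 to 0.932). The same sum over all genes of the table had a ratio of 0.979. A lower sum was not particular to the members. The ratio was 0.908 (0.890 to 0.926) for citric acid cycle genes and 0.932 (0.925 to 0.939) for the spermatocyte markers. It was 0.965 for mitochondrial and 0.962 for cytosolic ribosomal proteins, and 1.04 for regulators of mitochondrial biogenesis. Complex IV had a ratio of summed levels of 0.898 (0.878 to 0.918), and complex II had 1.02 (0.980 to 1.07). Complexes I, III and V lay between these, at 0.923, 0.925 and 0.912. The sum was thus lower in Alkbh1-/- for every complex but II, where the interval held 1. These summed levels and their intervals were taken with TMM scaling only, and the lower end for complex II lay close to 1.

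**Figure D2:**
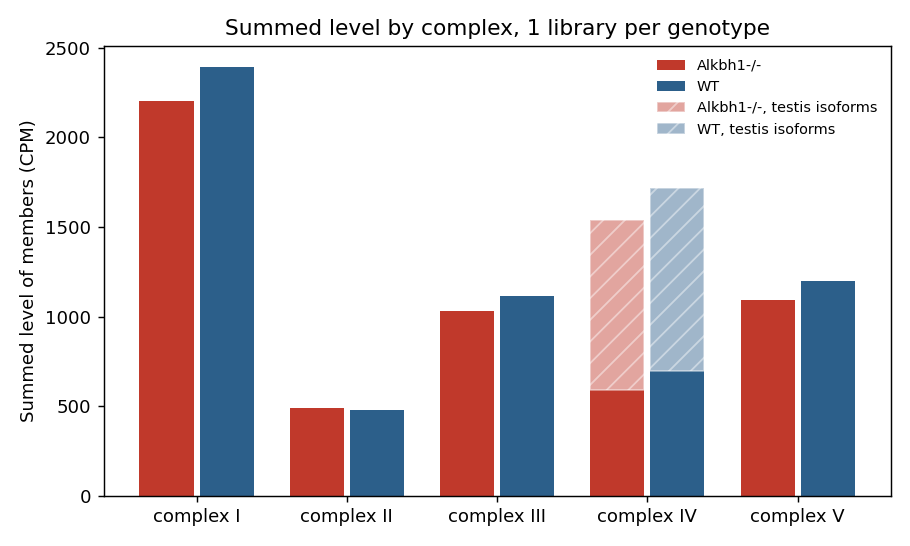
Summed CPM of the members of each complex (y axis, from 0) in the Alkbh1-/- and WT libraries, 1 library each, with the testis isoforms Cox6b2, Cox7b2 and Cox8c hatched. Complex IV sums to 1540 CPM in Alkbh1-/- and 1716 CPM in WT, of which the testis isoforms make up 951 CPM and 1022 CPM in the same order. Cox4i1 and Atp5b had no row and are not in these sums.

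Complex IV, cytochrome c oxidase, held the clearest feature of these cells, which both genotypes shared. For each of the 3 subunits with a testis isoform, nearly all counts of the pair fell on the testis gene. Counts were not corrected for transcript length, since no transcript lengths were used here, so each share is to be read against the same share in the other library. Cox6b2 (ENSMUSG00000051811, chromosome 7), the testis form of a subunit that faces the intermembrane space, had 3676 counts in Alkbh1-/- (356 CPM) and 2878 counts in WT (354 CPM). Its widespread partner Cox6b1 had 124 counts in Alkbh1-/- (12.0 CPM) and 132 counts in WT (16.2 CPM), a ratio of 0.739 (interval 0.574 to 0.952). Cox6b2 thus held 96.7% of the counts of the pair in Alkbh1-/- (interval 96.1 to 97.3) and 95.6% in WT (94.8 to 96.3). These intervals overlap, which does not show that the shares are equal.

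Cox8c (ENSMUSG00000043319, chromosome 12), the testis form of the small membrane-spanning subunit VIII, had 4902 counts in Alkbh1-/- (474 CPM) and 4218 counts in WT (518 CPM). Its widespread partner Cox8a had 106 counts in Alkbh1-/- (10.3 CPM) and 147 counts in WT (18.1 CPM), a ratio of 0.567 (interval 0.438 to 0.733). Cox8a was 1 of the 3 members past 1.5-fold. The share of Cox8c in the pair was 97.9% in Alkbh1-/- (97.4 to 98.3) and 96.6% in WT (96.1 to 97.1), and these intervals do not overlap, so that the higher share in the mutant library lay beyond counting error.

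Cox7b2 (ENSMUSG00000049387, chromosome 5), the testis form of subunit VIIb, had 1255 counts in Alkbh1-/- (121 CPM) and 1217 counts in WT (150 CPM), a ratio of 0.811 (0.749 to 0.879). Its partner Cox7b, on the X chromosome, stayed under the floor with 27 counts in Alkbh1-/- and 19 counts in WT. Cox7b2 held 97.9% of the pair in Alkbh1-/- (97.0 to 98.6) and 98.5% in WT (97.6 to 99.1). The testis isoforms together made up 61.7% of the counts of complex IV members in Alkbh1-/- (61.0 to 62.5) and 59.5% in WT (58.7 to 60.4). That total lacks the subunit gene Cox4i1, which had no row, and Ndufa4, counted by its symbol with complex I. It includes the pseudogene Cox6c2 and Cox7a2l. The shares are therefore not those of the whole complex.

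**Figure D3:**
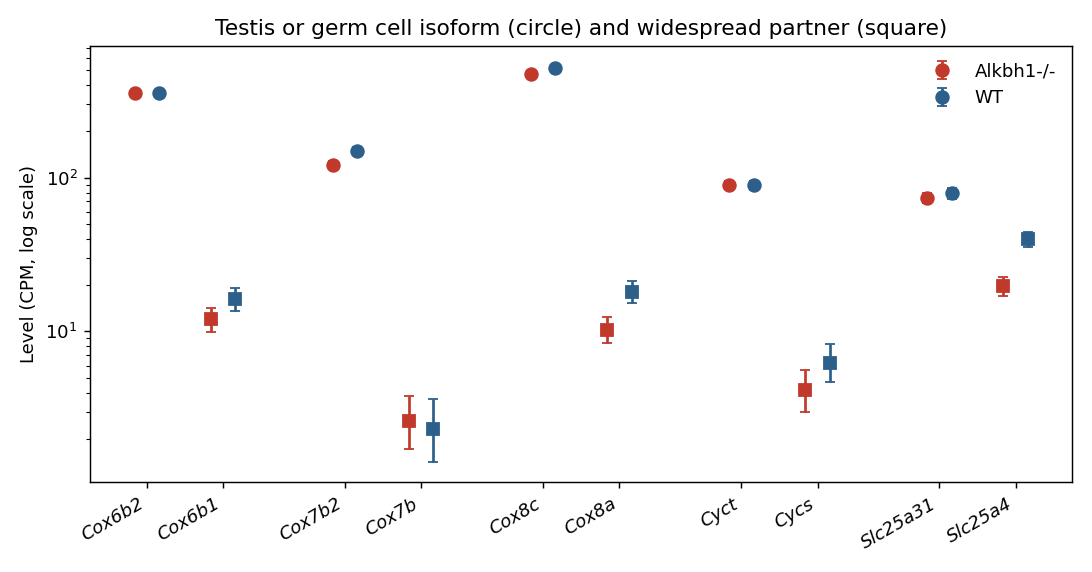
Levels (CPM, log axis) of testis or germ cell isoforms (circles) and their widespread partners (squares) in the Alkbh1-/- and WT libraries, with exact Poisson 95% counting intervals. In each of the 5 pairs the restricted form lies above its partner in both libraries. Cox6b1, Cox8a, Cycs and Slc25a4 lie lower in Alkbh1-/- than in WT, while Cox7b does not. The intervals of Cox6b1 and Cycs overlap between the libraries. The interval on the ratio lies below 1 for Cox6b1 (0.574 to 0.952) and holds 1 for Cycs (0.432 to 1.02). CPM is not corrected for transcript length.

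Forms known from other tissues were nearly absent. Cox6a2 and Cox8b, the heart and skeletal muscle forms, had 5 and 1 counts in Alkbh1-/- and 0 counts each in WT. Cox7a1, another muscle form, had 8 counts in Alkbh1-/- and 12 counts in WT, while its widespread partner Cox7a2 had 1642 counts in Alkbh1-/- and 1610 counts in WT. Cox4i2, a lung form, had 30 counts in Alkbh1-/- and 8 counts in WT, both under the floor (ratio 2.95, interval 1.32 to 7.45). Each of these tissue-restricted genes was thus below 5 CPM in both libraries.

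Over the whole of complex IV, the forms above included, 12 of 13 members over the floor had a log2 fold below 0 (median -0.18), and Cox6b2 was the exception. Cox5a, a nuclear-encoded subunit on the matrix side, had 830 counts in Alkbh1-/- (80.3 CPM) and 717 counts in WT (88.1 CPM), a ratio of 0.911 (0.823 to 1.01). Cox7c had 128 counts in Alkbh1-/- and 151 counts in WT (ratio 0.667, 0.523 to 0.850). The pseudogene Cox6c2 had 176 counts in Alkbh1-/- and 208 in WT, with 1008 and 896 counts in the same order for Cox6c itself. Cox7c and Cox6c2 lay just short of the 1.5-fold line on the scale with the pseudocount (log2 -0.55 and -0.56). Reads of genes with near-identical copies may be shared between them, so their counts are uncertain. Cox7a2l, which joins complex III to complex IV in supercomplexes, had 701 counts in Alkbh1-/- and 626 counts in WT (ratio 0.881, 0.790 to 0.983).

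The partners that lay lower in Alkbh1-/- did so beside the Sertoli cell markers. Not every partner was lower: Cox7b had a ratio of 1.12 (0.599 to 2.13), an interval that held 1. A lower widespread partner was also seen in cytochrome c and in the adenine nucleotide carrier, which work with the complexes. The testis cytochrome c gene Cyct had 89.8 CPM in Alkbh1-/- and 89.0 CPM in WT, while the widespread Cycs had 4.16 CPM in Alkbh1-/- and 6.27 CPM in WT. The ratio of Cycs was 0.663, and its interval (0.432 to 1.02) held 1. The germ cell carrier Slc25a31 had 73.9 CPM in Alkbh1-/- and 79.2 CPM in WT, while Slc25a4 had 19.6 CPM in Alkbh1-/- and 39.8 CPM in WT, and Slc25a5 had 11.5 CPM in Alkbh1-/- and 27.2 CPM in WT. Slc25a31 held 79.0% of the counts of Slc25a31 and Slc25a4 in Alkbh1-/- (76.3 to 81.5) and 66.5% in WT (63.5 to 69.5). The summed Sertoli markers in Alkbh1-/- were 0.509 of their WT level. The part of these cells in the levels of Cox6b1, Cox8a, Cycs, Slc25a4 and Slc25a5 was not tested.

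The 250 bases before the gene start are shown for these pairs, as RefSeq gives them on GRCm38.p6, since the choice between the genes of a pair is the feature of complex IV described above. A window for Cox8c was not used here. Cox6a1, a widespread subunit without a testis form, is shown for its motifs. Capitals mark matches to the motifs of NRF1 (the core GCGCANGC) and of ETS factors such as GABP (CCGGAAG), both known from genes of the respiratory chain; searches also covered YY1 (AAGATGGC), the oestrogen-related receptors (ERR, AAGGTCA) and the cyclic AMP response element (CRE, TGACGTNA), each on both strands.
Cox6b2 (chr7:4753095-4753344, minus strand): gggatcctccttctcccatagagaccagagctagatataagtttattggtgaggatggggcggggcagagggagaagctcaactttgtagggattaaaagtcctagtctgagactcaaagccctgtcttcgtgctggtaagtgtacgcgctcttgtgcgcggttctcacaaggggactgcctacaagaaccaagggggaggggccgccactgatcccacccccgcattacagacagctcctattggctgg
Cox6b1 (chr7:30626115-30626364, minus strand): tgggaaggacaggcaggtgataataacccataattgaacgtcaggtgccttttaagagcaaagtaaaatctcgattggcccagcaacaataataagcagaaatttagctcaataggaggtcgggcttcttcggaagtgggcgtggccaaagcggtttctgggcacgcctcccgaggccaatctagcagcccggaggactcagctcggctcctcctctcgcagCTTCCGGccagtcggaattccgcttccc
Cox7b2 (chr5:71548206-71548455, minus strand): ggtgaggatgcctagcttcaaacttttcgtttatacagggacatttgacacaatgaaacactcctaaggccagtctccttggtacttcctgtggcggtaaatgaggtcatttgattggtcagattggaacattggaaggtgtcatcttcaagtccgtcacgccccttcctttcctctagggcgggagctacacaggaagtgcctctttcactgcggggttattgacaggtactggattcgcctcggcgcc
Cox7b (chrX:106015450-106015699, plus strand): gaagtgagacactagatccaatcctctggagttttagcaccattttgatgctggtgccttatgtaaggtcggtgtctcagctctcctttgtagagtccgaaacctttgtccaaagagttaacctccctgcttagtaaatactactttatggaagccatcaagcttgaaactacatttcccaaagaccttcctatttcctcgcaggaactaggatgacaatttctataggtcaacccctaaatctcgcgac
Cox6a1 (chr5:115348959-115349208, minus strand): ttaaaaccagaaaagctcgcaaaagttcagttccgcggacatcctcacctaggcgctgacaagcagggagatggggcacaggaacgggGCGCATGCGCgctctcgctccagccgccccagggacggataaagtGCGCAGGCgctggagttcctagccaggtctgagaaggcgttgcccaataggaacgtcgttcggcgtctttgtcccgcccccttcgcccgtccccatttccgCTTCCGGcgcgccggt

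No match lay in the windows of Cox6b2, Cox7b2 or Cox7b, which says only that these letters are not in these windows. Cox6b1 had an ETS motif beginning 28 bases before the start. Cox6a1 had NRF1 matches beginning 162 and 160 bases before it, which overlap on opposite strands, another beginning 117 bases before it and an ETS motif beginning 16 bases before it. CpG pairs numbered 8 in the window of Cox6b2, 14 in Cox6b1, 9 in Cox7b2, 5 in Cox7b and 26 in Cox6a1. Of the 85 members, 68 had a window. The NRF1 core lay in 19 of them (27.9%) and in 9.38% of the 27025 genes with a window, and the ETS motif lay in 12 (17.6%) and in 7.83% of all. YY1, ERR and CRE matches lay in 1, 5 and 4 members, against 1.83%, 4.70% and 2.92% of all genes. The windows of members were richer in CpG (median 14 pairs) than those of all genes (median 6), which also bears on how often a motif with CG is met. The 19 members with the NRF1 core had a median log2 fold of -0.15 in Alkbh1-/- over WT, and the 46 over the floor with a window and no such match had -0.15 too.

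Complex I, the NADH dehydrogenase, had 38 of its 39 members over the floor, with a median log2 fold of -0.10 and 29 of 38 below 0. Its core subunits hold the flavin and the iron-sulphur clusters. They did not move as 1 block: of 7, 3 lay above 0 and 4 below. Ndufs3 had 281 counts in Alkbh1-/- (27.2 CPM) and 170 counts in WT (20.9 CPM), a log2 fold of 0.36 (interval on the ratio 1.07 to 1.58). Ndufv1, which binds NADH and the flavin, had 1482 counts in Alkbh1-/- (143 CPM) and 1025 counts in WT (126 CPM), a ratio of 1.14 (1.05 to 1.23). Ndufs7 had 33.7 CPM in Alkbh1-/- and 29.3 CPM in WT (ratio 1.15, 0.973 to 1.36). These were the core genes on the higher side, with 1 of the 3 intervals holding 1. On the lower side, Ndufs1, which holds iron-sulphur clusters, had a ratio of 0.864 (0.766 to 0.975), Ndufv2 had 0.938 (0.883 to 0.996), and Ndufs8 had 0.893 (0.757 to 1.05).

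The accessory subunits of complex I surround the core and are needed for its assembly and stability. Of the 31 over the floor, 25 lay below 0. Complexes were assigned by symbol, so these counts include Ndufa4 and Ndufa4l2, with log2 folds of -0.25 and -0.02. Ndufb11, on the X chromosome, had 42 counts in Alkbh1-/- (4.06 CPM) and 62 counts in WT (7.62 CPM), a ratio of 0.533 (0.351 to 0.801). Ndufs5 had 100 counts in Alkbh1-/- (9.67 CPM) and 127 counts in WT (15.6 CPM), a ratio of 0.620 (0.472 to 0.812). Both passed 1.5-fold at low counts, and neither remained over a floor of 20 CPM. Ndufc2 had 274 counts in Alkbh1-/- and 304 counts in WT (ratio 0.709, 0.600 to 0.838), and Ndufs4 had 629 counts in Alkbh1-/- and 659 counts in WT (0.751, 0.672 to 0.839). On the other side, the highest accessory member over the floor was Ndufa9, with 1372 counts in Alkbh1-/- and 1016 counts in WT, and its ratio of 1.06 (0.979 to 1.15) held 1. Ndufa4, first named for complex I and since found in complex IV, had 70 counts in Alkbh1-/- and 67 counts in WT. Ndufa4l2, its relative induced by low oxygen in other cells, had 328 counts in Alkbh1-/- (31.7 CPM) and 261 counts in WT (32.1 CPM), and it held 82.4% of the counts of the pair in Alkbh1-/- (78.3 to 86.0) and 79.6% in WT (74.8 to 83.8).

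Complex II, succinate dehydrogenase, has no subunit from mitochondrial DNA and also serves the citric acid cycle. Sdha, the flavoprotein, had 2683 counts in Alkbh1-/- (260 CPM) and 1973 counts in WT (243 CPM), a ratio of 1.07 (1.01 to 1.13). Sdhb, the iron-sulphur subunit, had a ratio of 1.07 (0.972 to 1.18). The membrane anchors lay on the other side, with Sdhc at 0.940 (0.844 to 1.05) and Sdhd at 0.881 (0.785 to 0.989). The catalytic part and the anchors thus leaned in opposite directions by small amounts, and the median log2 fold was 0.0044.

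In complex III, the cytochrome bc1 complex, all 8 members had a log2 fold below 0 (median -0.14). The large core proteins lay nearest to WT. Uqcrc1 had 3457 counts in Alkbh1-/- (334 CPM) and 2779 counts in WT (342 CPM), a ratio of 0.979 (0.931 to 1.03), and Uqcrc2 had 0.997 (0.931 to 1.07). Uqcrfs1, the Rieske iron-sulphur protein, had 0.957 (0.872 to 1.05). Among the small subunits, Uqcr10 had 667 counts in Alkbh1-/- (64.5 CPM) and 716 counts in WT (88.0 CPM), a ratio of 0.733 (0.659 to 0.816). Uqcrh, the hinge protein next to cytochrome c1, had 0.819 (0.719 to 0.933), and Uqcrq had 2741 counts in Alkbh1-/- and 2431 in WT (0.887, 0.840 to 0.937). Uqcrb had 0.929 (0.782 to 1.10) and Uqcr11 had 0.883 (0.707 to 1.10), and both of these intervals held 1. With library totals or upper quartile scaling Uqcrc2 lay above 0, and the other 7 stayed below it.

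ATP synthase had 16 members in the table, all over the floor, with 13 below 0 and a median log2 fold of -0.16. Atp5a1, the alpha subunit of the catalytic head, had 3895 counts in Alkbh1-/- (377 CPM) and 3279 counts in WT (403 CPM), a ratio of 0.935 (0.892 to 0.979). In the central stalk, Atp5c1 (gamma) had 657 counts in Alkbh1-/- and 671 counts in WT (0.770, 0.691 to 0.859), Atp5e (epsilon) had a ratio of 0.838 (0.761 to 0.922) and Atp5d (delta) had 0.961 (0.887 to 1.04). Members of the same stalk thus differed in size. In the peripheral stalk, Atp5f1 (subunit b) had 0.817 (0.733 to 0.910), Atp5h (subunit d) had 0.889 (0.773 to 1.02) and Atp5j (F6) had 0.919 (0.831 to 1.02).

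The ring of c subunits is encoded by 3 genes that give the same mature protein. Atp5g3 had 538 counts in Alkbh1-/- (52.0 CPM) and 446 counts in WT (54.8 CPM), Atp5g1 had 101 counts in Alkbh1-/- and 109 counts in WT, and Atp5g2 had 39 counts in Alkbh1-/- and 44 counts in WT. Their ratios were 0.949 (0.836 to 1.08), 0.729 (0.551 to 0.965) and 0.697 (0.441 to 1.10) in the same order. Atp5l, subunit g of the membrane part, had the highest log2 fold of any member over the floor, 0.55, from 68 counts in Alkbh1-/- (6.58 CPM) and 34 counts in WT (4.18 CPM). With a pseudocount of 0.5 CPM its log2 fold was 0.597, just past the 1.5-fold line at 0.585. Without a pseudocount its ratio was 1.57 (interval 1.03 to 2.45). Atp5s, coupling factor B, had 521 counts in Alkbh1-/- (50.4 CPM) and 346 counts in WT (42.5 CPM), a ratio of 1.18 (1.03 to 1.36).

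Members on the X chromosome are of interest because the sex chromosomes are silenced at the pachytene stage. There were 3 (Ndufa1, Ndufb11 and Cox7b), with 232 counts together in Alkbh1-/- and 210 counts in WT. Ndufa1 had 163 counts in Alkbh1-/- (15.8 CPM) and 129 counts in WT (15.9 CPM), a ratio of 0.994 (0.784 to 1.26). Cox7b, at 2.61 CPM in Alkbh1-/- and 2.34 CPM in WT, and Ndufb11, given above, completed the set. Of these 3, Cox7b has the autosomal testis form Cox7b2.

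Other genes of the pathway lay on both sides of 0. Of 36 assembly factors over the floor, 22 lay above 0 and 14 below, 4 were 1.5-fold or more above WT (11.1%, against 8.06% of all genes) and 1 below it (2.78%, against 8.79%), and their median log2 fold was 0.06. The 4 became 2 with a pseudocount of 5 CPM, 1 with a floor of 20 CPM and 0 at 2-fold. Nubpl, which delivers iron-sulphur clusters to complex I, had 13.7 CPM in Alkbh1-/- and 7.38 CPM in WT. Lyrm7 and Bcs1l, which help insert the Rieske protein, and Atpaf1, which assembles the ATP synthase head, were the others on the higher side, with log2 folds of 0.73, 0.72 and 0.70. Ndufaf4 had 2.80 CPM in Alkbh1-/- and 7.13 CPM in WT. Of 12 electron and nucleotide carriers, 1 passed 1.5-fold on the higher side (Etfb, log2 fold 1.06) and 3 on the lower side (Slc25a4, Slc25a5 and Vdac1, log2 folds -0.98, -1.17 and -0.91). Of 16 citric acid cycle genes over the floor and of 12 regulators of mitochondrial biogenesis over the floor, 0 passed 1.5-fold in either direction, with medians of -0.07 and 0.06. The regulators included Nrf1 itself (34.8 CPM in Alkbh1-/- and 27.9 CPM in WT), Gabpa (42.4 CPM in Alkbh1-/- and 43.0 CPM in WT) and Tfam (19.6 CPM in Alkbh1-/- and 19.3 CPM in WT).

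The ribosomal proteins are set beside the respiratory chain as a description with no test. The 70 mitochondrial ribosomal proteins over the floor had a median log2 fold of -0.04, with 39 below 0. Of those 70, 0 passed 1.5-fold in either direction, against 16.8% of all genes. The 63 cytosolic ribosomal proteins over the floor had a median of -0.14, with 42 below 0. Of those 63, 1 was 1.5-fold or more higher and 3 lower, against 8.06% and 8.79% of all genes. Among members with 500 or more WT counts, where counting error is small, 32 of 39 lay below 0 with a median of -0.14. Among all 3894 genes with as many WT counts, 59.7% lay below 0 and the median was -0.05.

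**Figure D4:**
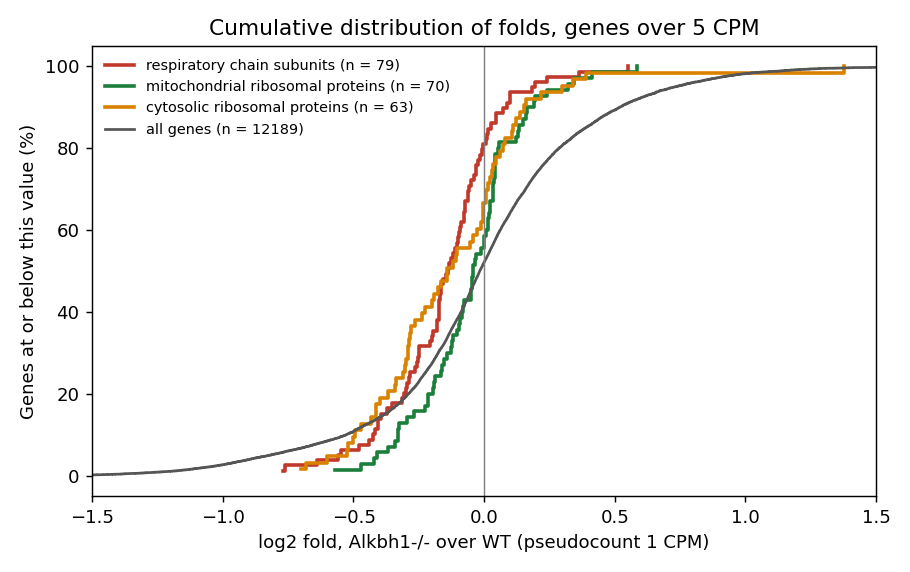
Cumulative share of genes (y axis, %) at or below each log2 fold of Alkbh1-/- over WT (x axis, pseudocount 1 CPM) for the 79 respiratory chain subunits, 70 mitochondrial and 63 cytosolic ribosomal proteins and all 12189 genes over 5 CPM. The subunits form a curve shifted to the left, with 81.0% below 0, against 52.1% of all genes. It is about as narrow as that of the mitochondrial ribosomal proteins (SD 0.22 and 0.21).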

How the data were processed

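The deposited mRNA table gives whole-number read counts per Ensembl gene for 1 Alkbh1-/- and 1 WT library. The submitters' processing notes list TopHat, Novoalign, bedtools, CASAVA 1.3 and build mm9 but no role for each; which counter and annotation were used, and whether strand was, no source used here gives. Of 21310 identifiers, 19848 (93.1%) matched a symbol. The small RNA files hold no value for these genes and were not used.

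Counts were scaled by TMM in edgeR 4.0.16 (R 4.3.3) to CPM, and a log2 fold was taken on CPM plus a pseudocount of 1, which understates changes of low genes. The floor was 5 CPM in either library, and the threshold 1.5-fold. Ratios and shares have exact Clopper-Pearson 95% intervals; PCR reads without molecular identifiers are not independent molecules, so these cover counting error only. The fold and interval were tested on simulated data that held counting error only. That test says nothing of differences between animals or preparations. DESeq2 1.42.0 gave other size factors. Other software was scipy 1.17.1, numpy 2.4.6, matplotlib 3.10.9 and pandas 2.3.3 under Python 3.11.15. Named genes were members past 1.5-fold, the 8 highest and 8 lowest, isoform pairs, those on the X chromosome and Cox5a; further members were chosen after their values were seen. A part of that rule on levels per length was not applied, since no transcript lengths were used. Chromosomes and promoter windows came from RefSeq on GRCm38, another build than mm9. Members and lists were chosen with earlier results of these data known. The values of 1 member are not reported here.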

Additional observations from a re-analysis of the deposited data

How the results depend on the processing

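No paired analysis was possible because each genotype had 1 mRNA library, which also means that no library could be left out. The counts of members past 1.5-fold rest on few, low genes. The 3 members at least 1.5-fold lower in Alkbh1-/- became 1 with a pseudocount of 5 CPM and 0 with a floor of 20 CPM, at 2-fold, or among members with 500 or more WT counts (chosen after seeing the data). Of all genes, 6.00% were lower with that pseudocount, 7.25% with that floor, 2.71% at 2-fold and 5.11% with 500 or more WT counts. The 0 members at least 1.5-fold higher became 1 with a pseudocount of 0.5 CPM (Atp5l), and 1 with a floor of 1 CPM or no floor (Cox4i2). The share of all genes higher was 8.53% with that pseudocount, 10.2% with a floor of 1 CPM and 8.21% with no floor. The median log2 fold of all members lay between -0.14 and -0.11 under every scaling, pseudocount and floor tried, and without the RefSeq pseudogenes (chosen after seeing the data). Complex medians kept their sign, and complex II stayed between 0.0018 and 0.035. With library totals 60 of 79 members lay below 0, and with upper quartile scaling 61, while the median of all genes moved to 0.014 with library totals and 0.0036 with upper quartile scaling. None of the 31 named members moved by more than the half-width of its interval under another scaling or pseudocount. That rule is loose at low counts. With a pseudocount of 5 CPM, Ndufb11 went from a log2 fold of -0.77 to -0.48, short of 1.5-fold, and still counted as unmoved. Cox6a2 and Cox8b, with 0 WT counts, had intervals with no upper end and could not be marked as moved. Depth limits the members with under 100 counts, among them Ndufb11, Atp5l, Atp5g2 and Cox7b.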

Other observations

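The pattern of testis and widespread forms in complex IV had a counterpart in pyruvate dehydrogenase, which feeds the citric acid cycle. Pdha2, the autosomal testis gene of its E1 alpha subunit, had 248 CPM in Alkbh1-/- and 238 CPM in WT, while the X-linked Pdha1 had 1.74 CPM in Alkbh1-/- and 3.69 CPM in WT. Of the porin genes, which form the channel of the outer mitochondrial membrane, Vdac2 had 480 CPM in Alkbh1-/- and 469 CPM in WT and Vdac3 had 145 CPM in Alkbh1-/- and 168 CPM in WT, while Vdac1 had 20.6 CPM in Alkbh1-/- and 39.6 CPM in WT.

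Copies named as pseudogenes of the members also had counts. Atp5k-ps2 had 337 counts in Alkbh1-/- and 294 counts in WT, more than Atp5k itself, which had 69 counts in Alkbh1-/- and 61 counts in WT. Uqcrh-ps2 had 114 counts in Alkbh1-/- and 108 counts in WT, beside 479 counts in Alkbh1-/- and 460 counts in WT for Uqcrh. No source used here says how the authors' counting divided reads between such copies, so the levels of Atp5k and Uqcrh are uncertain.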
